A study of Capsicum annuum with 78 samples.

Results

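Leaves of pepper (Capsicum annuum cv. Bukang) that had been sprayed with methyl jasmonate (MeJA) were compared with mock leaves at 24 h after spraying. The comparison used 6 of the 78 libraries of the series, which were all libraries titled MeJA or mock at 24 h, and it covered every gene that passed a filter on low counts. The MeJA group held 3 libraries from plants given 100 μM MeJA, and the mock group held 3 libraries from plants given distilled water. All plants were of this single cultivar, 6 weeks old per the labels, and each library was made from the pooled leaves of 4 plants. Each treatment was kept in a separate incubation, so the hormone and the incubation cannot be told apart. This holds at every time, and also between MeJA and the other hormones. Other MeJA and mock libraries (1, 3, 6 and 12 h, and mock at 0 h) and the libraries of abscisic acid (ABA), ethephon (ET) and sodium salicylate (SA) at 24 h were used where they showed how the 24 h difference stood among them. ABA was given at 100 μM, and ET and SA at 5 mM.

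Methyl jasmonate is the volatile ester of jasmonic acid. In plant cells jasmonate is conjugated to isoleucine, and this conjugate is bound by the receptor COI1 together with JAZ proteins, which hold back transcription factors such as MYC2. The JAZ proteins are then degraded and the genes they repressed are transcribed. In leaves of the nightshade family the pathway is known for defence against chewing insects, with proteinase inhibitors among its best known products, and for slower growth. The deposited counts name genes by identifiers of the CM334 annotation v.1.6, and of these 35884 identifiers 0 occur in the RefSeq gene list that was available, which was made for another pepper assembly. The members of the jasmonate pathway and the markers of leaf cell types were therefore not located here. Genes are described by groups, and 4 of them by identifier.

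The MeJA libraries were shallower than the mock libraries. They held between 4470356 and 5309413 counts, against between 6778012 and 8054316 in mock, and the MeJA mean was 66.0% of the mock mean. A floor of 3 counts was between 0.565 and 0.671 CPM (counts divided by the library total, on a common scale) in MeJA libraries and between 0.372 and 0.443 CPM in mock libraries; this covers counting error only. Genes with at least 1 count numbered 20798.7 ± 60.1 in MeJA and 21221 ± 342 in mock (SD, n = 3 each; p = 0.2, two-sided exact permutation test, where 3 against 3 libraries cannot go below 0.1). Counts of replicates varied beyond sampling noise in every pair, with a chi-square per degree of freedom between 2.38 and 4.66 within MeJA and between 4.89 and 12.7 within mock, and each library was counted as 1 replicate.

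Mock replicate 3 stood apart from its group. The root mean square (RMS) difference in log2(CPM + 1) over all genes tested was 0.372 between mock replicates 1 and 2, but 0.455 and 0.441 between replicate 3 and these 2. Its distance to the mean of the MeJA group, 0.407, was about the same as its distance to the mean of its 2 fellow mock libraries, 0.408. In the other 5 libraries the own group was nearer, with 0.323 to 0.355 to their own group and 0.419 to 0.527 to the other group. Among the MeJA libraries, replicate 3 was nearest to mock. The counts of genes called at 24 h, and some of the values that rest on them, are therefore also given without mock replicate 3. Other values are given only with it, among them the shares of counts and the medians against mock at 0 h and with other hormones.

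**Figure D1:**
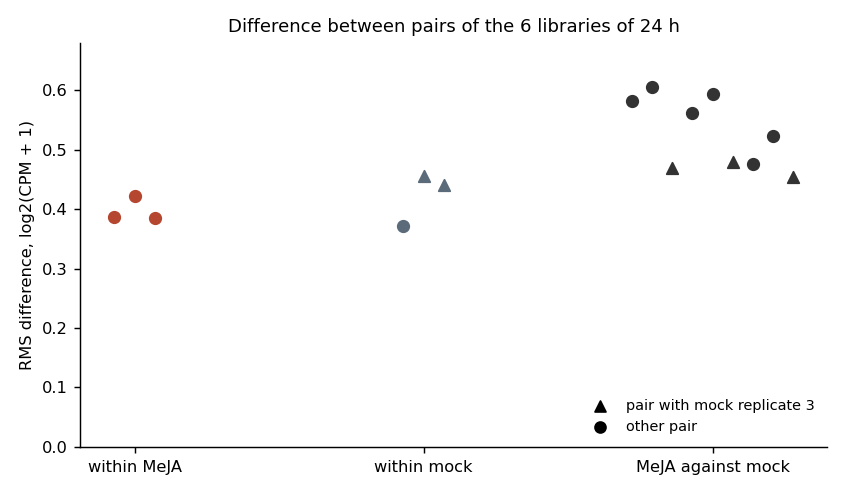
Each point is a pair of the 6 libraries of 24 h, and the vertical axis is the RMS difference in log2(CPM + 1) over all genes tested. Triangles are pairs with mock replicate 3, which lie at 0.441 and 0.455 within mock and between 0.454 and 0.479 against the MeJA libraries.

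At 24 h, 1012 of 18349 genes tested were higher and 1179 were lower in MeJA than in mock leaves (quasi-likelihood test of edgeR, Benjamini-Hochberg adjusted p under 0.05 over all genes). This was 11.9% of the genes tested, with 5.52% higher and 6.43% lower. The test was made in a joint fit of the 30 MeJA and mock libraries of 1 to 24 h, in which all groups share 1 estimate of a gene's spread. In whole leaves, less RNA per cell and fewer cells of a type cannot be told apart, so a fall or rise is one of the pooled leaf tissue. Most changes were small. The median size among the genes that rose was 0.76 on the log2 scale, which is 1.70-fold, and among those that fell it was also 0.76. At least 1 log2 unit separated MeJA from mock for 332 genes that rose (1.81% of those tested) and 357 that fell (1.95%), and at least 3 log2 units for 23 and 13 genes. The CPM of the 3 MeJA libraries lay wholly above that of the 3 mock libraries for 947 of the 1012 genes that rose (93.6%) and wholly below it for 1087 of the 1179 that fell (92.2%). Over all genes tested these shares were 14.3% and 12.6%. The same 6 libraries chose the called genes, which favours groups that do not overlap, so nothing is read from these shares.

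Without mock replicate 3 the test called 1243 genes higher and 1554 lower, and 1940 of the 2191 genes kept their call in the same direction. When the 6 libraries of 24 h were fitted alone, which uses only their own spread, 836 genes were higher and 854 were lower among 16056 tested (10.5%), and 1552 of the 2191 genes kept their call. All 2191 genes had the same sign of the fold change when any 1 of the 6 libraries was left out. This says little about stability, since the genes were chosen on the same libraries.

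**Figure D2:**
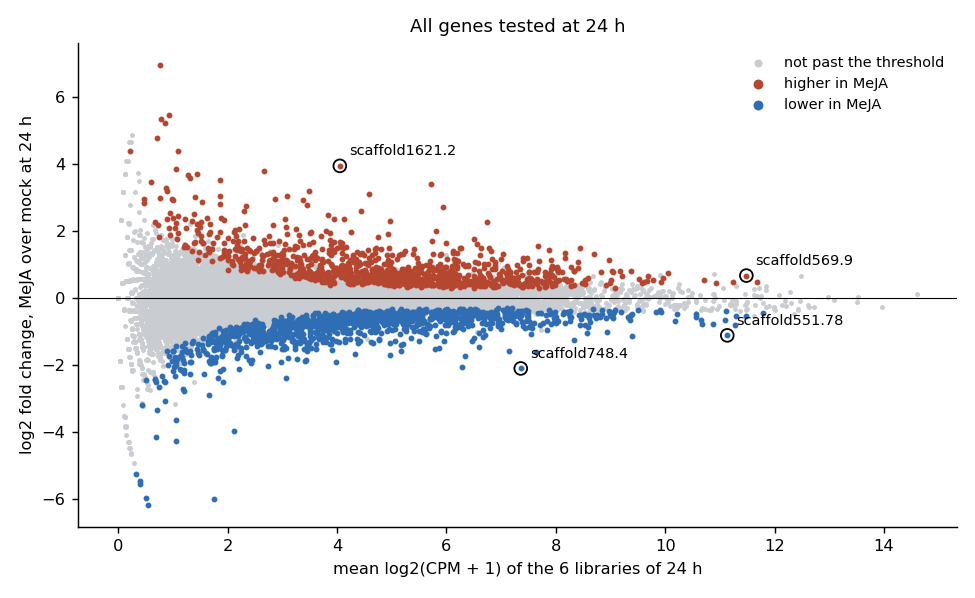
Each point is 1 of 18349 genes, placed by its mean log2(CPM + 1) in the 6 libraries of 24 h and its log2 fold change (MeJA over mock). Red points are the 1012 genes that were higher and blue points the 1179 that were lower in MeJA, and circles mark the 4 genes given by identifier.

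Genes called at 24 h were found at every level before treatment. The level was taken from the 3 mock libraries of 0 h, which took no part in the test. Of the 1546 genes tested at 100 CPM or more at 0 h, 104 rose (6.73%) and 270 fell (17.5%) after MeJA. Of the 8399 genes from 10 to 100 CPM, 510 rose (6.07%) and 690 fell (8.22%), and of the 7015 genes from 1 to 10 CPM, 317 rose (4.52%) and 211 fell (3.01%). Without mock replicate 3, 115 rose and 426 fell in the highest class. Abundant genes are counted more precisely, so small changes pass the test more easily there. In the highest class the median change was 0.52 among genes that rose and -0.58 among genes that fell (log2), and with a log2 change of at least 1 required 5 genes rose and 28 fell. Of the 1389 genes tested below 1 CPM at 0 h, 81 rose and 8 fell. Such genes passed the filter only through higher counts in later libraries, MeJA at 24 h among them, and a gene near the floor can hardly be called lower, so nothing is read from the balance of rises and falls in this class.

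The rise with the largest fold among well-expressed genes (at least 10 CPM in each library of the higher group) was that of CA.PGAv.1.6.scaffold1621.2. It had 70.9, 79.6 and 49.3 CPM in the MeJA libraries of 24 h, against 2.95, 0.745 and 9.30 CPM in the mock libraries. The groups did not overlap, which was required of each gene given by identifier. Both the lowest MeJA value and the highest mock value belonged to replicate 3. The log2 fold change was 3.93 (SE 0.46, adjusted p = 8.23e-07, edgeR), and it was 5.13 without mock replicate 3 (adjusted p = 1.22e-07). Without mock replicate 2 it was 3.42 (adjusted p = 1.65e-05, edgeR). The gene was at low levels earlier. At 12 h it had 1.37, 8.29 and 0.999 CPM in MeJA leaves, against 0.516, 1.06 and 1.36 CPM in mock leaves, where the difference did not pass the test (adjusted p = 0.101, edgeR). At 6 h it had 0, 0 and 4 counts in MeJA and 7, 1 and 5 counts in mock. The mock libraries of 0 h held 1 count in all, so that its level in mock was itself higher at 24 h (4.33 ± 4.44 CPM) than at 0 h (0.0555 ± 0.0961 CPM, SD, n = 3 each).

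The rise with the largest difference in CPM was that of CA.PGAv.1.6.scaffold569.9. It had 3691, 3666 and 3634 CPM in the MeJA libraries of 24 h, against 2135, 1818 and 2905 CPM in mock. The 3 MeJA values lay close together, and the highest mock value was again that of replicate 3. The log2 fold change was 0.66 (SE 0.14, adjusted p = 0.00175, edgeR), and 0.81 without mock replicate 3. Without mock replicate 2 it was 0.52 (adjusted p = 0.0325, edgeR). At 12 h the same gene had 3974, 5869 and 4112 CPM in MeJA leaves, against 3113, 3663 and 2802 CPM in mock leaves, with an adjusted p of 0.0509. At 1 h its MeJA values of 745, 709 and 770 CPM all lay below the mock values of 895, 1074 and 925 CPM (log2 fold change -0.40, adjusted p = 0.0601). The difference from mock at 24 h exceeded that at 1 h by 1.06 on the log2 scale (SE 0.20, adjusted p = 0.000588, edgeR). The gene was chosen for its rise in the same libraries of 24 h, which tilts this test towards 24 h.

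Among well-expressed genes, the fall with the largest fold was that of CA.PGAv.1.6.scaffold748.4. It had 73.4, 72.0 and 96.4 CPM in the MeJA libraries of 24 h, against 352.6, 416.7 and 250.2 CPM in the mock libraries. The groups lay apart, which the choice of the gene required, and replicate 3 was the highest MeJA library and the lowest mock library. The log2 fold change was -2.11 (SE 0.21, adjusted p = 8.56e-08, edgeR), -2.32 without mock replicate 3 and -1.94 without mock replicate 2. The gene changed strongly with time in mock leaves, with 1081 ± 56.9 CPM at 0 h, a highest value of 4705 CPM at 12 h and 339.8 ± 84.0 CPM at 24 h (SD, n = 3 each). It was also lower in MeJA leaves at 1, 3 and 12 h (log2 fold changes of -0.77, -0.995 and -0.83, each past the test), and at 6 h the value was -0.48 (adjusted p = 0.134, edgeR). In the direct tests the difference at 24 h was more negative than at 1, 3, 6 and 12 h. The gaps were -1.34, -1.11, -1.63 and -1.28 on the log2 scale (adjusted p between 0.000335 and 0.0152, edgeR). The gene was chosen for its large fall in the same libraries of 24 h. This choice tilts the tests towards a larger effect at 24 h, so nothing is concluded from their p-values.

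The fall with the largest difference in CPM was that of CA.PGAv.1.6.scaffold551.78. It had 1550, 1348 and 1763 CPM in MeJA leaves at 24 h, against 3155, 3972 and 2809 CPM in mock leaves. The lowest mock library lay above the highest MeJA library, which the choice of the gene required. The log2 fold change was -1.12 (SE 0.25, adjusted p = 0.00285, edgeR), and -1.27 without mock replicate 3. Without mock replicate 2 it was -0.97 (adjusted p = 0.0284, edgeR). At 12 h it had 1531, 686.2 and 1632 CPM in MeJA and 3604, 3719 and 3745 CPM in mock, a log2 fold change of -1.65 (adjusted p = 1.26e-05). At 6 h the groups overlapped, with 3087 to 3405 CPM in MeJA and 2835 to 3196 CPM in mock. Its difference at 24 h was more negative than at 6 h by -1.23 (adjusted p = 0.0274, edgeR). The choice of the gene by its fall at 24 h tilts this test in the same way.

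**Figure D3:**
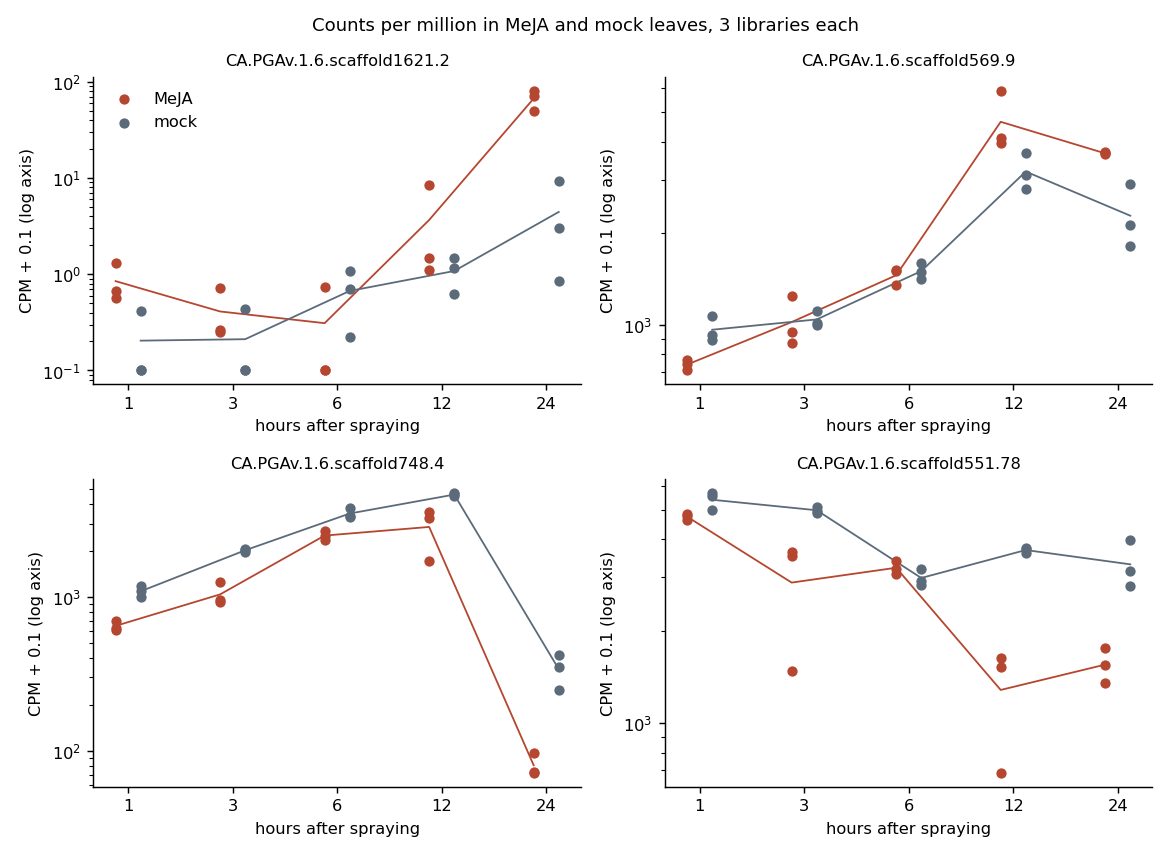
Points are CPM of single libraries (3 for each group and time, plotted as CPM + 0.1 on log axes) of the 4 genes given by identifier, at 1, 3, 6, 12 and 24 h after MeJA (red) or water (grey), and lines join the group means. At 24 h the MeJA and mock values do not overlap in any of the 4 panels, which the choice of the genes required. For CA.PGAv.1.6.scaffold1621.2 they are 49.3 to 79.6 CPM in MeJA against 0.745 to 9.30 CPM in mock.

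Few genes had counts in 1 group and none in the other. Of 36 genes tested with 0 counts in the 3 mock libraries, 2 were called higher in MeJA (5.56%, against 5.52% of all genes tested). Their mean MeJA levels were 0.342 CPM, which is under the floor of 3 counts, and 2.04 CPM. Of 52 genes tested with 0 counts in the 3 MeJA libraries, 5 were called lower (9.62%, against 6.43%), and their mean mock levels were between 0.644 and 1.19 CPM. None of these genes reached 10 CPM in the mean. These genes had 0 counts in 1 group by choice, so nothing is read from the shares. Their identifiers are not listed, because they are not paired with names.

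The genes called at 24 h were followed in the MeJA and mock libraries of 1, 3, 6 and 12 h, which are other plants. In the joint fit these libraries share the estimate of a gene's spread with those of 24 h, so they had a part in which genes passed at 24 h. Of the 1012 genes higher at 24 h, 249 were also called higher at 1 h (24.6%, against 6.67% of all genes tested), 346 at 3 h (34.2%, against 9.19%), 168 at 6 h (16.6%, against 5.41%) and 459 at 12 h (45.4%, against 12.1%). In the opposite direction, 61 were called lower at 1 h (6.03%, the same as the 6.03% of all genes tested), 31 at 3 h (3.06%, against 8.13%), 85 at 6 h (8.40%, against 4.67%) and 38 at 12 h (3.75%, against 11.3%). Of the 1179 genes lower at 24 h, 209 were called lower at 1 h (17.7%, against 6.03%), 322 at 3 h (27.3%, against 8.13%), 182 at 6 h (15.4%, against 4.67%) and 539 at 12 h (45.7%, against 11.3%). Called higher were 52 of them at 1 h (4.41%, against 6.67%), 68 at 3 h (5.77%, against 9.19%), 59 at 6 h (5.004%, against 5.41%) and 55 at 12 h (4.66%, against 12.1%). The share called the same way was highest at 12 h and lowest at 6 h in both sets, and so was the share of all genes tested. MeJA replicate 2 of 12 h stood apart in the share of its counts taken by the higher genes (8.55%, against 6.73% and 6.98% in replicates 1 and 3). Single libraries were left out only at 24 h, so how far the 12 h values depend on this library was not tested. The median log2 difference of the genes higher at 24 h was 0.18, 0.32, 0.09 and 0.49 in order of time, and that of the genes lower at 24 h was -0.17, -0.27, -0.17 and -0.40. Over all genes tested the median lay between -0.01 and 0.02 at these times. Without mock replicate 3, 1236 of the 1243 higher and 1552 of the 1554 lower genes also passed the count filter of the 30 libraries, and 561 and 705 of these were called the same way at 12 h.

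Separate fits removed the shared spread. Genes were chosen in the fit of the 6 libraries of 24 h, and the earlier times were tested in a fit of the 24 libraries of 1 to 12 h alone, with 15955 genes tested in both. Well-counted genes still pass more easily in both fits. Of 805 genes higher at 24 h, 204 were called higher at 1 h (25.3%, against 6.56% of all genes tested in both fits), 291 at 3 h (36.1%, against 9.90%), 136 at 6 h (16.9%, against 5.73%) and 385 at 12 h (47.8%, against 12.9%). Called lower were 56 of them at 1 h (6.96%, against 7.33%) and 31 at 3 h (3.85%, against 9.48%). At 6 h they were 80 (9.94%, against 5.57%) and at 12 h 35 (4.35%, against 12.7%). Of 854 genes lower at 24 h, 179 were called lower at 1 h (21.0%, against 7.33%), 278 at 3 h (32.6%, against 9.48%), 191 at 6 h (22.4%, against 5.57%) and 439 at 12 h (51.4%, against 12.7%). Called higher were 36 of them at 1 h (4.22%, against 6.56%) and 53 at 3 h (6.21%, against 9.90%). At 6 h they were 40 (4.68%, against 5.73%) and at 12 h 44 (5.15%, against 12.9%). Only the genes higher at 24 h, and only at 6 h, held more opposite calls than all genes tested, beside more calls in the same direction. Elsewhere opposite calls were fewer, at 1 h in the higher genes by little. The lower genes had their fewest calls in the same direction at 1 h here.

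**Figure D4:**
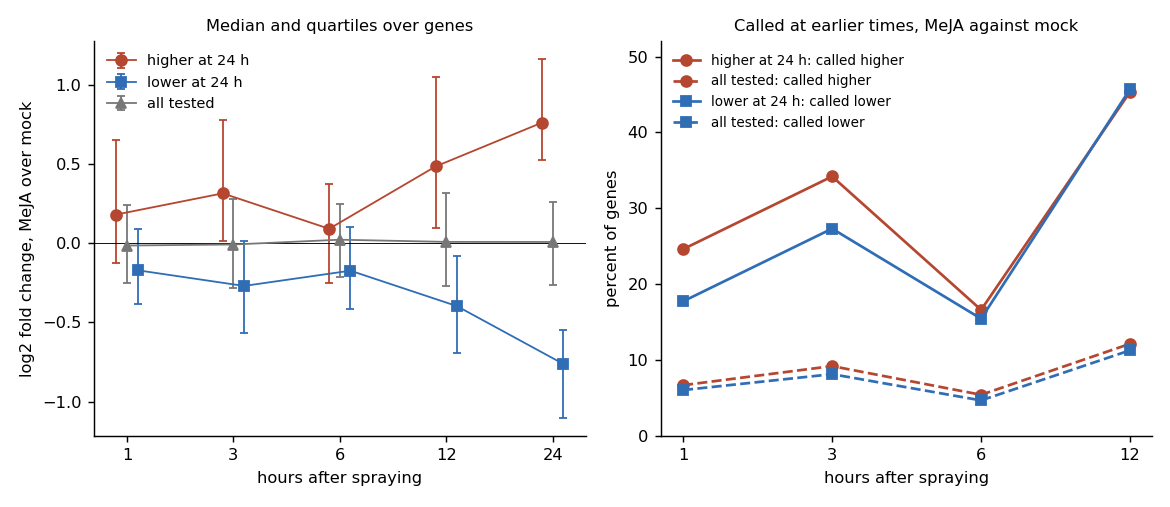
On the left, the median (with quartiles as bars) of the log2 fold change of MeJA over mock is plotted by time for the 1012 genes higher at 24 h, the 1179 lower at 24 h and all 18349 tested. On the right, the percent of each set called in the same direction at 1, 3, 6 and 12 h (solid lines) is plotted beside that of all genes tested (dashed lines), with 45.4% against 12.1% for higher and 45.7% against 11.3% for lower at 12 h.

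Some of the 24 h genes had not been called at any earlier time in the joint fit, namely 263 of the 1012 that rose (26.0%) and 308 of the 1179 that fell (26.1%), against 58.5% of all genes tested. Called higher at 1 or more earlier times, and never lower, were 565 of the genes that rose (55.8%, against 18.5%). Called lower, and never higher, were 688 of the genes that fell (58.4%, against 17.9%). Only the opposite direction was called earlier for 60 genes that rose (5.93%, against 17.9%) and 94 that fell (7.97%, against 18.5%). At all 4 earlier times the direction was the same for 34 genes that rose (3.36%, against 0.381%) and 15 that fell (1.27%, against 0.125%). Whether an uncalled earlier difference was truly smaller was tested separately, as a difference of differences.

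The share of a library's counts taken by these genes differed between MeJA and mock in the same direction at each time. The 1012 genes higher at 24 h took 10.4%, 10.6% and 9.47% of the counts in the MeJA libraries of 24 h, against 6.01%, 5.57% and 7.25% in the mock libraries. These libraries chose the genes, and those of the earlier times took part through the shared spread. The genes took 6.38% to 6.41% in MeJA against 4.99% to 5.12% in mock at 1 h, and 6.07% to 6.91% against 4.43% to 4.59% at 3 h. They took 5.49% to 5.96% against 4.93% to 4.99% at 6 h, and 6.73% to 8.55% against 4.96% to 5.25% at 12 h. The groups did not overlap at any of the 4 times. The 1179 genes lower at 24 h took 7.22% to 8.12% in MeJA against 10.3% to 12.4% in mock at 24 h. At 12 h they took 11.6% to 13.2% in MeJA against 15.4% to 15.5% in mock, and at 1 h 12.7% to 13.0% against 13.8% to 14.3%. At 3 h they took 13.2% to 13.9% against 14.7% to 15.3%, and at 6 h 13.7% to 14.8% against 15.3% to 15.8%. Again MeJA and mock did not overlap at any of the 4 earlier times. Nor did they with the 805 and 854 genes of the fit of 6 libraries, which took 6.42% to 8.45% in MeJA against 4.52% to 4.99% in mock, and 10.2% to 11.8% in MeJA against 13.8% in each mock library, at 12 h.

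Which genes responded otherwise at 24 h than earlier was tested as the difference between the MeJA effect at 24 h and that at each earlier time, for which both times have their own mock libraries. The effect differed from that at 1 h for 1460 genes (7.96% of those tested), from that at 3 h for 1288 (7.02%), from that at 6 h for 1319 (7.19%) and from that at 12 h for 1252 (6.82%). Without mock replicate 3 these counts were 1568, 1270, 1738 and 1163. Without mock replicate 2 the count against 6 h was 845, and without MeJA replicate 2 that against 3 h was 823. Over the 6 libraries left out in turn, the counts ranged from 1063 to 1568, 823 to 1270, 845 to 1738 and 980 to 1214. Of the 1252 genes that differed between 24 and 12 h, 773 were called against mock at 12 h only, with 470 higher and 303 lower there. Another 270 were called at 24 h only, with 112 higher and 158 lower. At both times 61 were called in the same direction with unequal size. The direction was opposite for 93 genes, of which 38 were higher at 24 h and lower at 12 h and 55 the reverse. Over all genes tested, 12 h had more calls against mock (12.1% higher, 11.3% lower) than 24 h (5.52% and 6.43%). The split also rests on the same libraries as the tests, so nothing is read from the larger number at 12 h only. When single libraries of 24 h were left out, 591 to 793 genes were called at 12 h only and 140 to 333 at 24 h only. Of the genes that differed between 24 and 6 h, 562 were called at 24 h only, 449 at 6 h only and 144 in opposite directions. Over all genes tested, 5.41% were called higher and 4.67% lower than mock at 6 h. The balance between 24 and 6 h rested on single libraries. Without mock replicate 2 there were 254 genes at 24 h only and 390 at 6 h only, without MeJA replicate 1 361 and 413, without MeJA replicate 2 315 and 394, without mock replicate 1 425 each, and without mock replicate 3 882 and 435.

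Levels in mock leaves moved between 0 and 24 h, and the MeJA difference stood on top of that. Among the 1012 genes higher at 24 h, the median log2 difference from mock at 0 h was 1.26 for MeJA at 24 h and 0.51 for mock at 24 h. Among the 1179 genes lower at 24 h these medians were -1.03 and -0.24. Over all genes tested they were 0.01 and 0.03. In the median, mock leaves at 24 h had thus moved in the same direction from 0 h as MeJA leaves, by a smaller amount. These libraries include those that chose the genes, so the values are a description.

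The genes called at 24 h were followed in the leaves of the other hormones at 24 h. The 4 differences from mock share the 3 mock libraries, so their likeness is not tested here. For the 1012 higher genes the median log2 difference from mock was 0.76 with MeJA, 0.49 with ABA, 0.20 with SA and 0.04 with ET. For the 1179 lower genes it was -0.76 with MeJA, -0.47 with ABA, -0.33 with SA and -0.29 with ET. The share of counts taken by the higher genes was 8.29% to 9.12% in ABA libraries, 8.08% to 8.34% in SA libraries and 6.96% to 7.69% in ET libraries. The genes were chosen as high or low in the 3 MeJA libraries, which favours the largest values there, so no order between hormones is read from these values.

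A direct test between MeJA and each other hormone at 24 h needs no mock library. Hormone and incubation cannot be told apart in it either. MeJA leaves differed from ABA leaves in 335 of 19469 genes (1.72%), of which 155 were higher and 180 lower in MeJA. They differed from SA leaves in 3358 genes (17.2%) and from ET leaves in 9003 genes (46.2%). Within the 1012 genes higher than mock, 95 were also higher and 2 were lower with MeJA than with ABA, and within the 1179 lower genes 95 were lower and 1 was higher. Over all genes tested against mock, 0.845% were higher and 0.981% lower with MeJA than with ABA. The sets were chosen for high or low values in the same 3 MeJA libraries, which tilts these counts, and nothing is read from them. When the 6 libraries of MeJA and ABA at 24 h were fitted alone, 595 genes differed. Without MeJA replicate 1 the joint fit called 135, and without MeJA replicate 2 it called 149. A gene that missed the threshold is not shown to be equal in MeJA and ABA leaves.

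The 4 genes given by identifier were compared between hormones in the same way. CA.PGAv.1.6.scaffold1621.2 had 66.6 ± 15.6 CPM with MeJA, 27.0 ± 18.2 with ABA, 7.49 ± 0.89 with SA, 3.74 ± 2.31 with ET and 4.33 ± 4.44 with mock at 24 h (SD, n = 3 each). Its difference between MeJA and ABA was 1.27 on the log2 scale (SE 0.38, adjusted p = 0.0633, edgeR), while those from SA (3.32) and ET (4.22) passed the test. CA.PGAv.1.6.scaffold569.9 had 3664 ± 28.9 CPM with MeJA and 3375 ± 464 CPM with ABA, a log2 difference of 0.10 (SE 0.14, adjusted p = 0.824). CA.PGAv.1.6.scaffold748.4 had 80.6 ± 13.7 CPM with MeJA and 105.5 ± 10.9 CPM with ABA, a log2 difference of -0.40 (SE 0.19, adjusted p = 0.335). CA.PGAv.1.6.scaffold551.78 had 1554 ± 207 CPM with MeJA and 1752 ± 17.0 CPM with ABA, a log2 difference of -0.19 (SE 0.22, adjusted p = 0.773). From SA and ET leaves all 4 genes differed in the direct tests, with log2 differences between 0.99 and 4.22 for both genes that rose and between -1.24 and -0.73 for both that fell. The genes were chosen as extremes in the same 3 MeJA libraries, which tilts these tests, so nothing is concluded from the passes. With ABA all 4 genes differed from mock in the same direction as with MeJA, each past the test. The log2 differences were 2.66 for CA.PGAv.1.6.scaffold1621.2, 0.56 for CA.PGAv.1.6.scaffold569.9, -1.71 for CA.PGAv.1.6.scaffold748.4 and -0.93 for CA.PGAv.1.6.scaffold551.78. The differences from mock share the 3 mock libraries that helped to choose the genes. Against mock, CA.PGAv.1.6.scaffold748.4 was also lower with SA (-1.30) and ET (-1.01), each past the test. CA.PGAv.1.6.scaffold569.9 was lower than mock with SA (-0.54) and ET (-0.33), each past the test. Neither difference from mock passed for CA.PGAv.1.6.scaffold1621.2 (SA 0.61, ET -0.29) or CA.PGAv.1.6.scaffold551.78 (SA 0.11, ET -0.39).

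The number of genes called depended on single libraries. It was 1369 without MeJA replicate 1, 1262 without MeJA replicate 2, 1921 without MeJA replicate 3, 1549 without mock replicate 1, 1072 without mock replicate 2 and 2797 without mock replicate 3. Leaving out mock replicate 3 raised the count, and leaving out any of the other 5 libraries lowered it. When replicate 2 was left out of every group of the joint fit, 465 genes were called, and 455 of them were among the 2191. When every library was thinned at random to the depth of the shallowest, 1961 genes were called, 922 higher and 1039 lower.

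**Figure D5:**
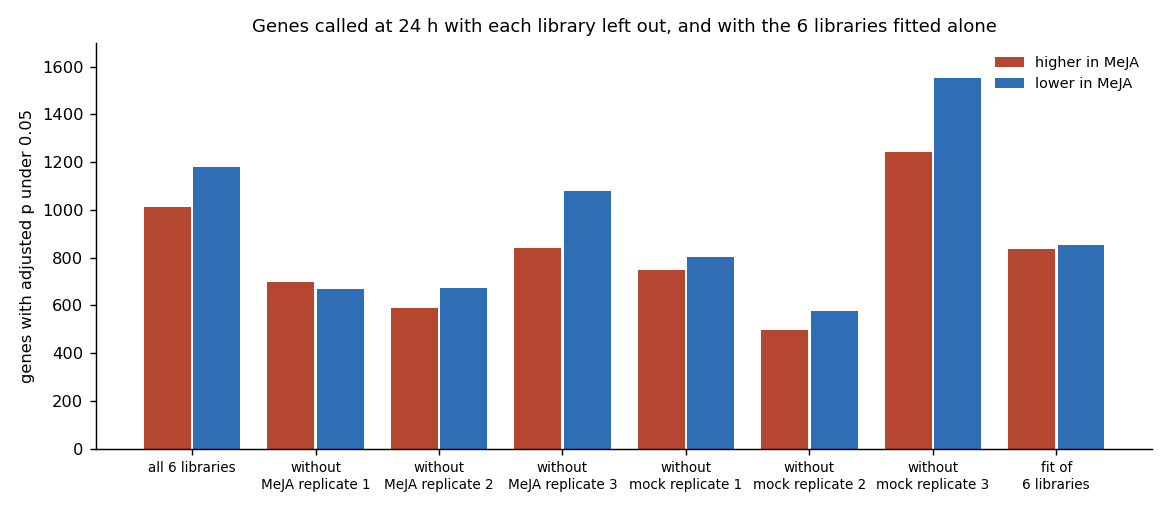
Bars are the numbers of genes higher (red) and lower (blue) in MeJA than in mock leaves at 24 h (adjusted p under 0.05) with all libraries, with each of the 6 libraries of 24 h left out of the joint fit, and with these 6 libraries fitted alone. The counts go from 497 higher and 575 lower without mock replicate 2 to 1243 higher and 1554 lower without mock replicate 3.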

How the data were processed

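Pepper leaf RNA was sequenced from strand-specific poly(A) libraries. The authors used cutadapt 1.15, Trimmomatic 0.38 and FastQC 0.11.8 to clean and check reads, HISAT2 to map them (CM334 reference, v.1.6) and HTSeq 0.11.2 to count reads by gene, per the submitters' processing notes and the methods. The values deposited by the authors are raw read counts with 1 column per library, and 0 columns were left without a sample. The strand setting and the handling of multi-mapping reads are not given in the sources used here, so reads of near-identical or overlapping genes may be shared. Bukang reads were mapped to another cultivar, which may lower the counts of diverged genes.

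Tests used edgeR 4.0.16 under R 4.3.3 (filterByExpr, TMM, glmQLFit, glmQLFTest) in the joint fit of 10 groups and 30 libraries, or of 25 groups and 75 libraries for direct tests between hormones. The edgeR test gives no SE. Each SE printed with it is the absolute log2 fold change divided by the square root of the F statistic, an approximation. The methods name no test of single genes. The code was checked on simulated counts. Alternatives were RLE scaling, DESeq2 1.42.0, other count filters, thinning, smaller and larger fits, a replicate block and left-out libraries. Up to 2 genes per direction are given by identifier, first by fold and then by CPM difference, among genes called in both the joint fit and the fit of 6 libraries, not overlapping in CPM and with at least 10 CPM in each library of the higher group. The rule and the groups were chosen with earlier results of these data known. Sets called without mock replicate 3 and the separate fits of the 6 libraries of 24 h and the 24 libraries of 1 to 12 h were added after seeing the data. Python 3.11.15, numpy 2.4.6, pandas 2.3.3, scipy 1.17.1 and matplotlib 3.10.9 were used. Replicates are pools of different plants.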

Additional observations from a re-analysis of the deposited data

Results flagged for a closer look

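The effect of MeJA at 24 h differed from that at another time by a direct test for 1460 genes against 1 h, 1288 against 3 h, 1319 against 6 h and 1252 against 12 h (adjusted p under 0.05, edgeR). Among the 4 genes given by identifier, such a difference was found for CA.PGAv.1.6.scaffold1621.2 against 6 h (5.24 on the log2 scale). At 6 h that gene held between 0 and 7 counts in each MeJA or mock library, so this value depends on very few counts. It was found for CA.PGAv.1.6.scaffold569.9 against 1 h (1.06), 3 h (0.73) and 6 h (0.71). For CA.PGAv.1.6.scaffold748.4 the effect at 24 h was more negative than at 1 h (-1.34), 3 h (-1.11), 6 h (-1.63) and 12 h (-1.28). For CA.PGAv.1.6.scaffold551.78 it was more negative than at 6 h (-1.23). All 4 genes were chosen for their difference in the same libraries of 24 h. This tilts the values towards a larger effect at 24 h, so nothing is concluded from these tests of single genes. Groups of 3 libraries are too small for a test of single outlying libraries, and none was made.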

How the results depend on the processing

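Of 272 alternative values, 223 stayed on their side (counts within 1.5 times, named genes with the same sign and an adjusted p under 0.05). A direction could reverse only for the named genes, since a count has no sign, and it did not reverse for any of them. The named genes were chosen for passing the test without overlap in the same libraries, so nothing is read from the lack of reversals. RLE scaling, DESeq2, both other count filters, thinning and the replicate block left the counts of the 24 h comparison with mock, of the differences of effects and of the direct tests within 1.5 times. The fits of 75 and of 6 libraries, run for the 24 h comparison with mock, did the same. The counts called the same way at 1 to 12 h were recomputed with RLE scaling, with the genes of the fit of 6 libraries, with the genes called without mock replicate 3 and in separate fits, and stayed within 1.5 times. With a log2 change of at least 1 required, the 2191 genes at 24 h became 689 (332 higher, 357 lower). The differences of the 24 h effect became 869 genes against 1 h, 603 against 3 h, 792 against 6 h and 710 against 12 h, and the direct tests 75 genes against ABA, 963 against SA and 3721 against ET. The fit of the 12 libraries of both times gave 651 genes for 24 h against 3 h, and the fit of 6 libraries 595 for MeJA against ABA. The cause was not tested.

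With replicates or single libraries left out, the count at 24 h ranged from 465 to 2797 genes (252 to 1243 higher, 213 to 1554 lower). The differences of effects ranged from 547 to 1568 against 1 h, 417 to 1270 against 3 h, 385 to 1738 against 6 h and 392 to 1214 against 12 h. The direct tests ranged from 63 to 355 genes against ABA, 1788 to 3415 against SA and 7116 to 9057 against ET. Without replicate 2 in every group, CA.PGAv.1.6.scaffold569.9 (0.53, adjusted p = 0.0894) and CA.PGAv.1.6.scaffold551.78 (-0.88, adjusted p = 0.0693) missed the threshold. Over all their alternatives the adjusted p went from 7.37e-05 to 0.0894 and from 1.06e-08 to 0.0693 (edgeR or DESeq2).

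In the 3 same-numbered pairs of 24 h, the deviations of the 2 libraries from their group means correlated between -0.17 and -0.029, which gives no sign of pairing. A fit with the replicate block called 2187 genes at 24 h (1015 higher, 1172 lower). The depth limits what can be seen of genes below about the floor of 3 counts, and differences in them were hardly detectable. A gene with a mean of 0.342 CPM in MeJA and 0 counts in mock was called all the same.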

Other observations

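Some genes with consecutive numbers in their identifiers were called together. Of 586 genes higher in MeJA at 24 h whose next number on the same scaffold was also tested, 47 were followed by a gene that was higher too (8.02%), against 5.52% of all genes tested. Of 756 such lower genes, 81 were followed by a lower gene (10.7%, against 6.43%). Runs of 3 or more consecutive numbers were found 4 times among higher and 9 times among lower genes. The longest was a run of 6 higher genes, which had mean levels of 2.07 to 4.79 CPM in MeJA and 0.275 to 1.29 CPM in mock leaves and log2 fold changes of 1.82 to 2.91. Whether the numbers follow the order on the scaffold, and whether these 6 genes share reads, was not tested.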
